A study of Mus musculus with 12 samples.

Results

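The genes for the protein subunits of the mitochondrial ribosome were read in mouse embryonic stem cells that expressed a hairpin against the noncoding RNA TUNA for 2, 4 or 6 days. Members were the rows of the expression table whose name starts with Mrpl or Mrps followed by a digit. There were 81 such rows among 37477 in all, 50 named Mrpl for the large subunit and 31 named Mrps for the small subunit. Of these 81, 76 carry the symbol of a gene and 5 that of a pseudogene, spread over 17 chromosomes.

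Mitochondria keep ribosomes of their own, which translate the few messages of the mitochondrial genome, all of them for subunits of the respiratory chain and the ATP synthase. The ribosomal RNAs come from the mitochondrial genome, while every ribosomal protein is encoded in the nucleus, made in the cytosol and imported. The small subunit decodes the message and the large subunit joins the amino acids and is anchored at the inner membrane. Many of the proteins have a bacterial counterpart, and others are found only in mitochondria. Embryonic stem cells draw much of their energy from glycolysis, and their mitochondria are immature compared with those of differentiated cells.

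The cells were CCE, a line of mouse embryonic stem cells grown in serum medium with LIF, a cytokine that keeps such cells undifferentiated. All groups had been transduced with a pLKO.1-puro lentivirus and were kept in puromycin, which selects the transduced cells. There were 4 groups of 3 libraries of total RNA: TUNA hairpin at day 2, TUNA hairpin at day 4, TUNA hairpin at day 6, and a control hairpin at day 2. Controls of days 4 and 6 were not analysed here, so the effects of the hairpin and of time in culture cannot be told apart at those days. The labels do not state whether the 3 libraries of a group are separate cultures, so the spread between them may be technical. Each group is a pool of transduced cells of 1 line, and the number of hairpin sequences against TUNA was not given in the sources used here.

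Between 3522126 and 5652412 reads per library were recovered from the steps between values, of which all but 936421 to 2024737 lay in 3 rows (Rnu3a, Tex14 and LOC100503663). The members held 2165 to 3850 reads per library, so the row of a typical member rests on few reads. The row of the targeted RNA was listed at 0 in all 12 libraries, so the table does not check the knockdown. Of 8 markers of embryonic stem cells all passed the filter on low values. Their summed level was 2535 to 2702 normalized counts (day 2), 2400 to 2610 (day 4) and 1761 to 2208 (day 6). In the control it was 2807 to 3056. Against the control 0 of the 8 passed in limma at day 2, 2 as lower at day 4 and 3 as lower at day 6. Over all rows tested 7.76% passed as lower at day 4 and 3.15% at day 6. Of the fibroblast markers Col1a1, Col1a2, Col3a1, Dcn and Lum were listed at 0 throughout, while the sum over that list of 8 was 12.3 to 34.6 (day 2), 15.7 to 26.02 (day 4) and 242 to 331 (day 6), against 6.62 to 10.3 in the control. Acta2 and Tagln, the members of that list tested, passed as higher at day 4 with log2 changes of 2.21 and 1.2 (adjusted p = 0.0353 and 0.0354, limma), where limma-voom called 0. At day 6 they passed with 6.75 and 4.4 (adjusted p = 1.05e-05 and 3.32e-06, limma), and limma-voom called 2. Acta2 reached 10 normalized counts only in the day 6 libraries. It thus passed the filter through the group where it is high, and its call there is not separate support. The endoderm markers Afp, Ttr and Apoa1 were listed at 0, and that list of 6 summed to 2.27 to 7.84 (day 2), 11.7 to 17.1 (day 4) and 1.5 to 6.21 (day 6), against 2.21 to 8.63 in the control. The neural list, with 4 of its genes among the rows, summed to 15.7 to 22.4 (day 2), 20.8 to 25.9 (day 4) and 41.7 to 54.0 (day 6). The control sum was 21.14 to 35.89. Of its 2 tested genes, Nes passed as higher at day 6 with a log2 change of 2.86 (adjusted p = 0.013, limma). Nes, too, reached 10 normalized counts only in the day 6 libraries, so the same limit holds for its call. Tubb3 had -0.68 at day 6 and did not pass (adjusted p = 0.369, limma). The part of these changes in the results below was not tested.

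Levels of the members spanned a wide range. To compare genes, the mean over the 12 libraries was divided by transcript length, using the longest principal transcript of each gene in the GENCODE M21 annotation. On this scale of normalized counts per kilobase, the median of the 47 large subunit genes was 20.4 and that of the 29 small subunit genes was 12.4. The large subunit was led by Mrpl54 at 92.2, Mrpl51 at 69.0 and Mrpl33 at 65.1 normalized counts per kilobase. Its lowest members were Mrpl52 at 4.12, Mrpl47 at 3.94 and Mrpl23 at 0.212; in bacteria the counterpart of Mrpl23 sits at the exit of the tunnel for the new protein. The small subunit was led by Mrps18c at 78.9, Mrps25 at 42.6 and Mrps24 at 34 normalized counts per kilobase. At its low end stood Mrps15 at 3.77, Mrps10 at 1.58 and Mrps36, which was listed at 0.

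**Figure D1:**
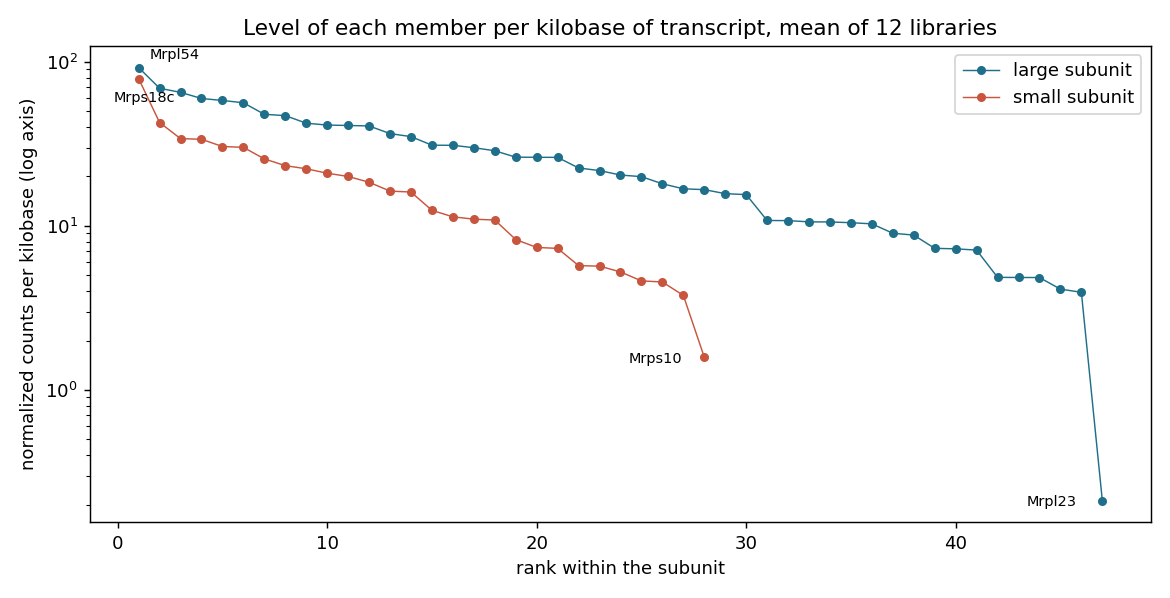
Mean level of each mitochondrial ribosomal protein gene over the 12 libraries, in normalized counts per kilobase of transcript on a log axis, against its rank within the subunit. Each point is 1 gene; large subunit genes run from 92.2 for Mrpl54 to 0.212 for Mrpl23, small subunit genes from 78.9 for Mrps18c to 1.58 for Mrps10, and Mrps36, listed at 0, is not drawn.

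A filter of 10 or more normalized counts in 3 or more libraries kept 66 of the 81 rows, 42 of the large (Mrpl48-ps among them) and 24 of the small subunit, and none passed through 1 group alone. The 15 rows left out were Mrpl14, Mrpl23, Mrpl36, Mrpl42, Mrpl52, Mrpl55, Mrps10, Mrps15, Mrps18a, Mrps34, Mrps36 and the pseudogene rows Mrpl23-ps1, Mrpl51p, Mrps36-ps1 and Mrps36-ps2. Mrps36 and those 4 pseudogene rows were listed at 0 in every library. All group means of the other 10 lay under 10 normalized counts, for example 5.01 at day 2, 9.53 at day 4 and 6.61 at day 6 for Mrpl42, against 6.71 in the control. Changes of those 10 could not be judged at this depth. Mrps36 is a special case, since its protein is now known as a part of the 2-oxoglutarate dehydrogenase complex and not of the ribosome.

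At day 2, the comparison matched in time, the subunit genes stood close to the control as a group and 1 of them fell. Of the 66 tested members 33 had a log2 change below 0, with a median of -0.00, beside 49.1% and a median of 0.01 over all 8739 rows tested. Mrpl32 encodes a large subunit protein with a bacterial counterpart, whose cleavage by the m-AAA protease of the inner membrane is needed for ribosome assembly. It had 45.1, 61.8 and 55.5 normalized counts at day 2, against 98.4, 98.2 and 117 in the control. Each day 2 library lay below each control library. The log2 change was -0.95 ± 0.21 (SE), with an adjusted p of 0.0413 in limma. This call is 1.52% of the members, where 0.961% of all rows tested passed in either direction and 0.549% passed as lower. It was lost without a filter on low values (adjusted p = 0.0586, limma), without the intensity trend (0.109) and when any 1 of the 6 libraries was left out, with an adjusted p of 0.0875 to 0.181, while the log2 change stayed between -1.04 and -0.82.

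Among members whose mean reached 30 normalized counts, the next largest differences at day 2 did not pass the test. Mrps26, a small subunit protein without bacterial counterpart, averaged 31.0 ± 6.82 normalized counts at day 2 and 44.9 ± 7.43 in the control (SD, n = 3 each; limma adjusted p = 0.385). Mrpl45, which lies at the tunnel exit facing the inner membrane, averaged 65.9 ± 6.55 at day 2 and 94.4 ± 21.8 in the control (adjusted p = 0.351, limma). On the other side Mrps23, Mrpl50 and Mrpl15 had log2 changes of 0.45, 0.33 and 0.32, and their libraries overlapped those of the control.

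At day 4 a set of 5 members fell and 0 rose in limma. Limma-voom called 6 lower and 0 higher, and its share over all rows is not given here. At an unadjusted p under 0.05 in limma there were 11 lower and 0 higher, or 16.7% of the tested members. Over all 8739 rows tested 29.9% were under that value, with 1354 rows lower. The 5 were Mrpl32, Mrpl35 and Mrpl40 of the large subunit and Mrps18b and Mrps26 of the small subunit. They are 7.58% of the tested members, where 14.7% of all rows tested passed in either direction, 7.76% as lower and 6.99% as higher. The share that fell was thus near that of all rows.

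Mrpl32 had 39.1, 65.0 and 69.3 normalized counts at day 4, against 98.4, 98.2 and 117 in the control. Its day 4 libraries all lay below the control, with replicate 1 lowest. The log2 change was -0.88 ± 0.21 (SE; limma adjusted p = 0.00957). Mrpl35, another large subunit protein with a bacterial counterpart, had 33.8, 48.1 and 35.2 normalized counts at day 4, against 99.0, 67.6 and 62.8 in the control. The groups did not overlap, although control replicate 1 stood well above the other controls. The log2 change of Mrpl35 was -0.94 ± 0.21 (SE; limma adjusted p = 0.00591), and it passed without any 1 of the 6 libraries. Mrpl40 has no bacterial counterpart, and its human gene lies in the region lost in DiGeorge syndrome. Mrpl40 had 36.5, 31.7 and 33.9 normalized counts at day 4, against 60.1, 58.2 and 72.7 in the control. Every day 4 library lay well below the lowest control. For Mrpl40 the log2 change was -0.88 ± 0.20 (SE; limma adjusted p = 0.00712), and it too passed without any 1 of the 6 libraries.

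The 2 small subunit members were lower in level and more scattered. Mrps18b, one of the mammalian relatives of bacterial S18, had 7.58, 20.6 and 11.8 normalized counts at day 4, against 24.0, 28.8 and 33.4 in the control. The groups did not overlap, but the day 4 libraries differed widely among themselves. The log2 change was -1.15 ± 0.30 (SE; limma adjusted p = 0.0157). Mrps26 had 26.4, 25.1 and 17.1 normalized counts at day 4, against 52.6, 37.7 and 44.6 in the control. All day 4 libraries again lay below the control, with a log2 change of -0.96 ± 0.24 (SE; limma adjusted p = 0.0126). Of the 5 calls, 3 were lost without some library: Mrpl32 without day 4 replicate 1 (adjusted p = 0.0501), Mrps18b without day 4 replicate 1 (0.0763) or control replicate 3 (0.0636), and Mrps26 without control replicate 1 (0.0613), all in limma. Without day 4 replicate 1 the count was 3, and without day 4 replicate 3 it was 9, of which 8 were lower and 1 was higher. The shares over all rows in these 2 fits are not given here, so these counts are not read as a result about the members.

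**Figure D2:**
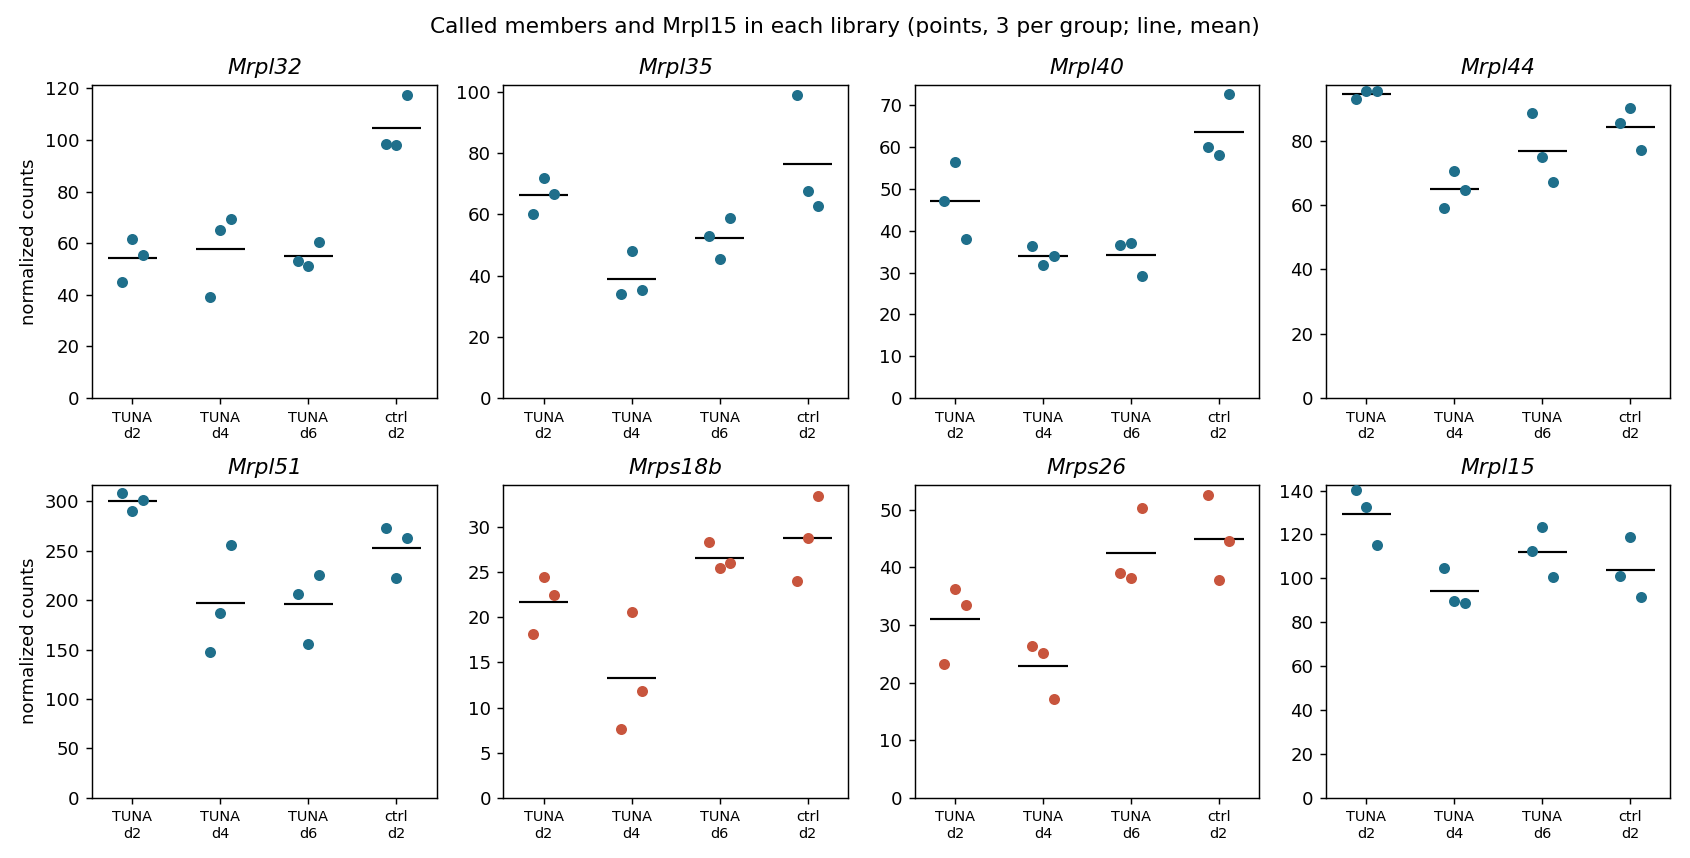
Normalized counts in each library for the 7 members that passed the test in some comparison and for Mrpl15, in groups TUNA hairpin day 2, day 4 and day 6 and control hairpin day 2; points are the 3 libraries and the line is their mean. Mrpl32 and Mrpl40 lie below every control library at all 3 days, while Mrps18b and Mrps26 are lowest at day 4 and stand at 26.6 and 42.5 on average at day 6.

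Mrpl53, a large subunit protein without bacterial counterpart, stood just outside the threshold at day 4. It had 13.9, 33.7 and 35.4 normalized counts at day 4, against 57.7, 47.8 and 51.3 in the control. The groups did not overlap, and the log2 change was -1.0 ± 0.33 (SE; limma adjusted p = 0.0525). It passed without day 4 replicate 3 (adjusted p = 0.0264, limma), with a pseudocount of 5 (0.0454) and in limma-voom (0.0251). The largest positive differences at day 4, of Mrps24, Mrps30 and Mrps9, were 0.45, 0.31 and 0.30 on the log2 scale. None of these passed and their libraries overlapped those of the control, but Mrps24, with 50.1, 46.5 and 17.9 normalized counts at day 4 against 21.4, 32.2 and 23.2 in the control, passed as higher without day 4 replicate 3 (adjusted p = 0.0331, limma).

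The promoters of the 5 members that fell at day 4 are shown so that the letters of the members called can be compared, and because promoters of nuclear genes for mitochondrial proteins are known for sites of NRF1 and of GABPA, an ETS factor also called NRF2. Each window runs from 250 bases before to 50 bases after the annotated start, 5′ to 3′ along the gene, from RefSeq on GRCm38.p6. Capitals mark matches, on either strand, to the short NRF1 motif (CATGCGC), to the full NRF1 motif, which joins GCGCATG and CATGCGC at the shared letters CATG and so contains the short one, or to GABPA/ETS (CCGGAAG), YY1 (ATGGCGGC) or the E-box bound by MYC (CACGTG). Mrpl32 lies at chr13:14612988-14613287 on the minus strand, Mrpl35 at chr6:71823735-71824034 on the minus strand, Mrpl40 at chr16:18876588-18876887 on the minus strand, Mrps18b at chr17:35916391-35916690 on the minus strand and Mrps26 at chr2:130563507-130563806 on the plus strand.
Mrpl32: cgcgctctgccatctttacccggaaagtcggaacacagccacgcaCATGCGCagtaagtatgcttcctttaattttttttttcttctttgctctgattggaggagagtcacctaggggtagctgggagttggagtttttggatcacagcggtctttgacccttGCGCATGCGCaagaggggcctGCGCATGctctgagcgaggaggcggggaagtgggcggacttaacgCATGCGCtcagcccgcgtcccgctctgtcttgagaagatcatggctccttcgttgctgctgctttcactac
Mrpl35: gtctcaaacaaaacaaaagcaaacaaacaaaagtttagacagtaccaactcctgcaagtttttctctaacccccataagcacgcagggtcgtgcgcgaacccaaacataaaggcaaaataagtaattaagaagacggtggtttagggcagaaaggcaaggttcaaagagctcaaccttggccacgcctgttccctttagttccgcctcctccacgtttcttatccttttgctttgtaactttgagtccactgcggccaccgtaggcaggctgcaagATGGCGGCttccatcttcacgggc
Mrpl40: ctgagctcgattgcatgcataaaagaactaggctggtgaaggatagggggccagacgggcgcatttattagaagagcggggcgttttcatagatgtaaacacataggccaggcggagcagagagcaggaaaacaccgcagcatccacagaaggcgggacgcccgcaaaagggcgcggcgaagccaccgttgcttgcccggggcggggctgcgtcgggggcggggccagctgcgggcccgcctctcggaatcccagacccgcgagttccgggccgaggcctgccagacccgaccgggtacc
Mrps18b: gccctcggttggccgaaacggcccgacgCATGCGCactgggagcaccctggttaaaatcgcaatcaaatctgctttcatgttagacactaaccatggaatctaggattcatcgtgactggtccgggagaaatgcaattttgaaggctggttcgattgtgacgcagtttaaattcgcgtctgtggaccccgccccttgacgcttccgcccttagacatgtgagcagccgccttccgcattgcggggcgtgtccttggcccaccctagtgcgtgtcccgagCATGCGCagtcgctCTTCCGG
Mrps26: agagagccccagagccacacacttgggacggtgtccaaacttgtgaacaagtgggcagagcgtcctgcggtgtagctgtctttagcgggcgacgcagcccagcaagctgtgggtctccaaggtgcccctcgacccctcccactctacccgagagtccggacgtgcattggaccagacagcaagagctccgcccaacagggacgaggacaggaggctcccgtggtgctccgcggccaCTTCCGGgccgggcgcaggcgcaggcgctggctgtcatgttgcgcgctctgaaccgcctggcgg

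No motif of those searched occurs in all 5 windows. Mrpl32 holds a full NRF1 motif at position 164, counted from 1 at the 5′ end, with short ones inside it and others at positions 46, 185 and 230. Mrpl35 has a YY1 match at position 277, Mrps26 a GABPA/ETS match at position 237, and Mrps18b the short NRF1 motif at positions 29 and 280 and a GABPA/ETS match at position 294. In Mrpl40 none of these letters occur, which says nothing of the factors themselves. RefSeq promoters were found for 67 of the member genes, 73 windows in all. Of these windows 32.88% held the GABPA/ETS motif, 16.44% YY1, 10.96% the short NRF1 motif, 4.11% the full NRF1 motif and 9.589% the E-box. The same shares over the 7164 promoters of all tested rows were 19.89%, 5.849%, 8.291%, 2.554% and 11%, and over all 32851 promoters 8.858%, 2.243%, 3.909%, 0.9711% and 7.15%. By subunit, GABPA/ETS was in 28.26% of the 46 large and 40.74% of the 27 small subunit windows, and the full NRF1 motif in 6.522% of the large and 0% of the small subunit windows.

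At day 6 the falls of Mrpl32 and Mrpl40 were present and no other member passed. These are 3.03% of the tested members, where 6.21% of all rows passed in either direction and 3.15% as lower. Mrpl32 had 53.3, 51.0 and 60.7 normalized counts at day 6, against 98.4, 98.2 and 117 in the control. The 3 libraries stood close together, below every control. Its log2 change was -0.91 ± 0.21 (SE; limma adjusted p = 0.0137). Mrpl40 had 36.7, 37.1 and 29.2 normalized counts at day 6, against 60.1, 58.2 and 72.7 in the control, again with no overlap. Its log2 change was -0.87 ± 0.20 (SE; limma adjusted p = 0.0134). Both calls were lost without control replicate 3 (adjusted p = 0.0652 for Mrpl32 and 0.0688 for Mrpl40, limma), and that of Mrpl32 also without day 6 replicate 1 (0.0596). The control libraries are the same in all 3 comparisons, so low values at 3 days against them are not 3 separate observations.

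Other members at day 6 did not pass. Mrpl53 averaged 29.0 ± 11.8 normalized counts at day 6 and 52.3 ± 5.01 in the control (SD, n = 3 each; limma adjusted p = 0.125). Mrpl16, whose bacterial counterpart lies near the peptidyl transferase centre, had 34.4, 31.2 and 20.2 normalized counts at day 6, against 14.5, 13.1 and 16.5 in the control. Its day 6 libraries lay above each control, with a log2 change of 0.89 ± 0.28 (SE; limma adjusted p = 0.0745); it was picked after its values were seen. Mrps24, Mrps23 and Mrpl54 had log2 changes of 0.52, 0.49 and 0.34 at day 6, with libraries that overlapped the control.

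Between days of the TUNA hairpin, 3 members fell at day 4 relative to day 2, all of the large subunit. These are 4.55% of the tested members, where 7.66% of all rows passed in either direction and 4.38% as lower. Mrpl44, which carries a fold related to RNase III, had 59.1, 70.7 and 64.8 normalized counts at day 4, against 92.9, 95.4 and 95.5 at day 2. The day 2 libraries were nearly equal and stood above each day 4 library. On the log2 scale the change was -0.54 ± 0.16 (SE; limma adjusted p = 0.0491). Mrpl51, a member without bacterial counterpart and the most abundant of the large subunit in normalized counts, had 147, 187 and 256 at day 4, against 309, 290 and 301 at day 2. Day 4 replicate 3 came nearest to day 2, and the groups did not overlap. The log2 change of Mrpl51 was -0.64 ± 0.19 (SE; limma adjusted p = 0.0428). Mrpl35 had 33.8, 48.1 and 35.2 normalized counts at day 4, against 60.2, 71.9 and 66.7 at day 2, with no overlap and a log2 change of -0.76 ± 0.21 (SE; limma adjusted p = 0.033). Mrpl44 was also lost under median of ratios and upper quartile scaling, without a filter, in limma-voom, without the intensity trend and in a fit of only the 2 groups (adjusted p = 0.051 to 0.0774). Mrpl51 was lost without a filter (0.0597) and without the trend (0.113), and Mrpl35 without the trend (0.0621). None of these 3 calls was kept throughout when single libraries were left out. Mrpl44 was lost without any 1 of the 6 libraries (adjusted p = 0.074 to 0.144, limma). Mrpl51 was lost without any 1 library of day 2 (0.0975 to 0.121) and without day 4 replicates 1 (0.17) or 2 (0.124), and Mrpl35 without any 1 library of day 2 (0.0594 to 0.113) and without day 4 replicates 1 (0.107) or 3 (0.0701).

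Neighbouring members in the same comparison missed the threshold. Mrpl53 averaged 27.7 ± 12 normalized counts at day 4 and 52.7 ± 10.4 at day 2 (SD, n = 3 each; limma adjusted p = 0.0779), and it passed without day 4 replicate 3 (0.0402). Mrpl49 averaged 55.0 ± 6.54 at day 4 and 86.8 ± 9.35 at day 2 (adjusted p = 0.0695, limma). In the other direction Mrps30 averaged 43.4 ± 4.42 at day 4 and 28.9 ± 7.29 at day 2 (adjusted p = 0.131, limma), and Mrpl1 and Mrpl24 each had a log2 change of 0.21.

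At day 6 relative to day 4, the 2 small subunit members that had fallen at day 4 rose. They are 3.03% of the tested members, where 5.58% of all rows passed in either direction and 2.64% as higher. Mrps18b had 28.3, 25.5 and 25.99 normalized counts at day 6, against 7.58, 20.6 and 11.8 at day 4. The day 6 libraries were close to each other and above each day 4 library. On the log2 scale the change was 1.05 ± 0.30 (SE; limma adjusted p = 0.0487). Mrps26 had 39.0, 38.2 and 50.2 normalized counts at day 6, against 26.4, 25.1 and 17.1 at day 4, without overlap. Its log2 change was 0.88 ± 0.24 (SE; limma adjusted p = 0.0407). The day 4 libraries enter both this comparison and that of day 4 with the control, so the 2 results are not separate observations. Each call was lost in 5 of the 6 fits that left out 1 library: Mrps18b without day 4 replicate 1 (0.166) or 3 (0.0938) or any day 6 library (0.0825 to 0.15), and Mrps26 without day 4 replicate 2 (0.0772) or 3 (0.121) or any day 6 library (0.0604 to 0.113), as limma adjusted p. Both were also lost without a filter (0.0772 for Mrps18b and 0.0598 for Mrps26), without the trend (0.066 and 0.0598) and in a fit of only the 2 groups (0.145 and 0.103). Mrpl19 and Mrpl54 also stood higher at day 6 with log2 changes of 0.66 and 0.45, and Mrps31, Mrpl24 and Mrps27, a pentatricopeptide repeat protein, stood lower with -0.53, -0.41 and -0.36; none of these passed.

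Large and small subunit members were set side by side by their counts and medians. Against the control, the median log2 change of the 42 large subunit members was -0.00 at day 2, -0.19 at day 4 and -0.14 at day 6, and that of the 24 small subunit members was -0.01, -0.16 and -0.04. The medians of all 8739 rows in those comparisons were 0.01, -0.01 and -0.01. At day 4 a log2 change below 0 was found for 29 of 42 large and 13 of 24 small subunit members, 42 of 66 or 63.6% together, where 50.6% of all rows were below 0. At day 6 it was 24 of 42 and 13 of 24, or 56.1% together, beside 51% of all rows. From day 2 to day 4 the medians were -0.23 for large and -0.26 for small subunit members, with 31 of 42 and 15 of 24 below 0, or 69.7% together beside 50.7% of all rows. From day 4 to day 6 they were 0.16 and 0.15, with 13 of 42 and 8 of 24 below 0, or 31.8% together beside 49.4% of all rows. The median of a subunit varied between replicates with an SD of 0.0821 for the large and 0.163 for the small subunit. The medians depended on the libraries and members used. Without day 4 replicate 3 the day 4 medians were -0.15 for the large and 0.034 for the small subunit, and with a filter of 30 normalized counts they were -0.37 and -0.15. Without members that overlap another gene the day 2 medians were 0.26 and -0.07.

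**Figure D3:**
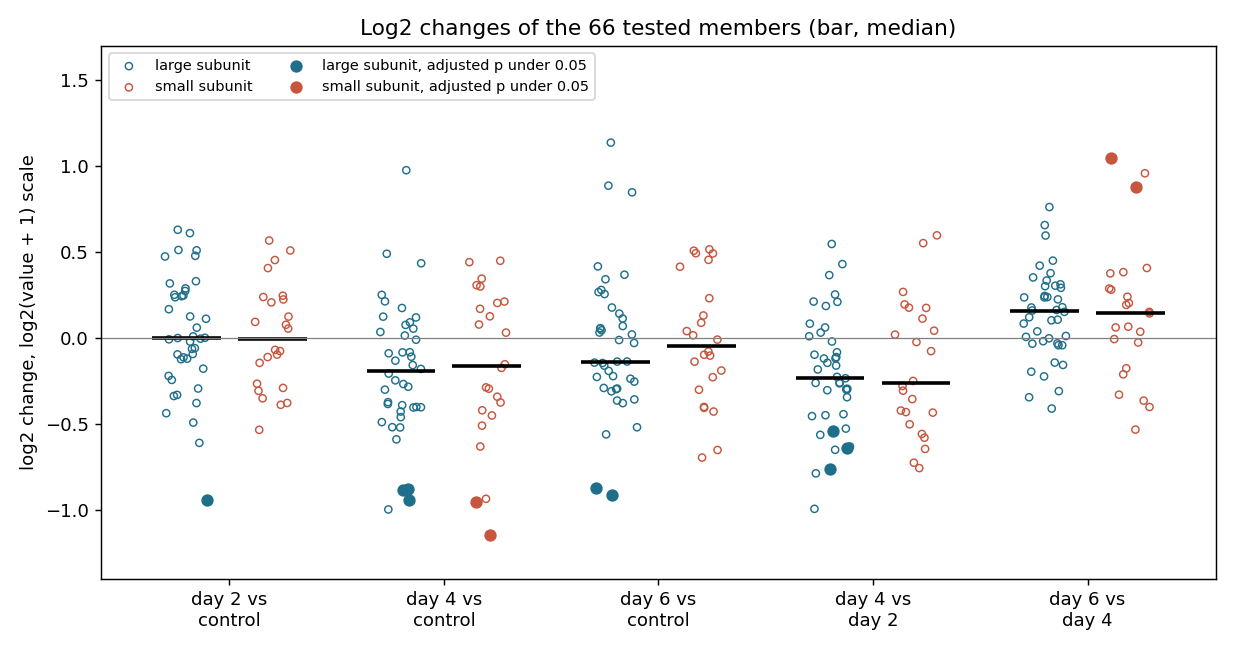
Log2 changes, on the log2(value + 1) scale, of the 66 tested members in the 5 comparisons, each point 1 gene, large subunit left and small subunit right within a comparison. Filled points passed the limma test and bars are medians, which lie at -0.19 and -0.16 for large and small subunit at day 4 against the control and at 0.16 and 0.15 for day 6 against day 4.

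The median position of the small subunit at day 4 rested on 1 library. The median deviation of its tested members from their 12-library mean was 0.10 and 0.04 in day 4 replicates 1 and 2 and -0.42 in replicate 3, on the log2 scale. For the large subunit the same 3 libraries were alike, at -0.15, -0.15 and -0.09. Without day 4 replicate 3 the median log2 change of the small subunit against the control was 0.03, and against day 2 it was 0.07. The summed normalized counts of the small subunit went the other way. They were highest in day 4 replicate 3, at 911.6, against 820.1 and 856.6 in replicates 1 and 2. That order came from 1 gene. Mrps25 had 147, 211 and 352 in day 4 replicates 1, 2 and 3, a wider step than that of the sum. Without its row the sum is not highest in replicate 3. In the control the median deviations were -0.01 to 0.13 for the large and -0.01 to 0.10 for the small subunit.

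Summed over all rows, the large subunit had 2118 ± 54.0 normalized counts at day 2, 1733 ± 99.3 at day 4 and 1878 ± 44.3 at day 6, against 2109 ± 131 in the control (SD, n = 3 each). The day 4 libraries, at 1642 to 1839, and the day 6 libraries, at 1829 to 1916, all lay below the lowest control of 1962; with upper quartile scaling the highest day 6 library, at 1957, passed the lowest control, at 1949. As a share of the reads outside the 3 rows that dominate the libraries, all members together held 0.231% to 0.239% (day 2), 0.187% to 0.205% (day 4) and 0.242% to 0.245% (day 6), against 0.242% to 0.290% in the control. On that scale the day 2 and day 4 libraries lay below every control library and the day 6 libraries overlapped the control. For the small subunit the sums were 938 ± 28.2, 863 ± 46.1 and 889 ± 58.0 at days 2, 4 and 6, against 980 ± 109 in the control. Here the day 4 libraries, at 820.1 to 911.6, ended at the lowest control, which was 911.6 too. The ratio of the sums, large to small, was 2.26 ± 0.12 at day 2, 2.01 ± 0.0079 at day 4 and 2.12 ± 0.18 at day 6, against 2.16 ± 0.18 in the control, whose libraries span 2.00 to 2.36. The sums weigh abundant genes most: Mrps25, the highest small subunit member, averaged 271 ± 35.0, 237 ± 105 and 230 ± 91.3 normalized counts at days 2, 4 and 6, against 299 ± 103 in the control. In day 4 replicates 1 to 3 Mrps25 had 147, 211 and 352, and in those of the control 417, 246 and 233. The small spread of the day 4 ratio depends on this row, as does the place of the day 4 small subunit sums beside the control. In such bulk RNA fewer cells of a type and less RNA per cell cannot be told apart.

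**Figure D4:**
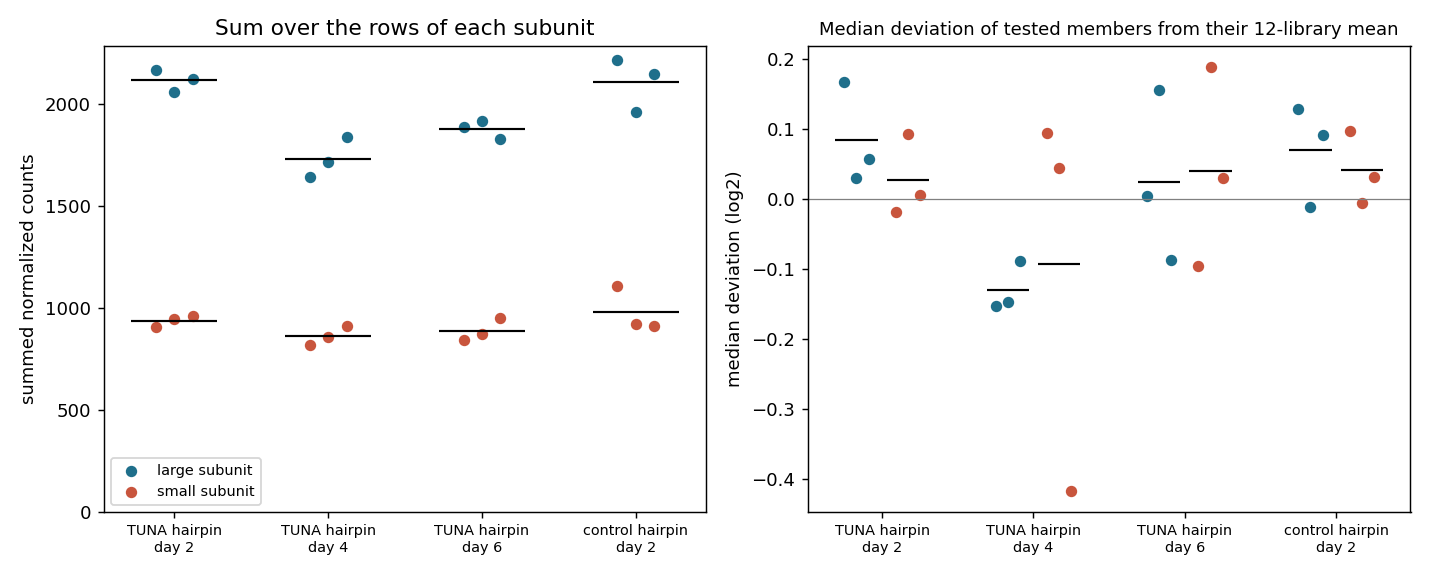
Left, summed normalized counts of large and small subunit rows in each library; right, median deviation (log2) of the tested members of each subunit from their mean over 12 libraries. Points are the 3 libraries of a group and lines their mean; in the right panel day 4 replicate 3 stands apart for the small subunit at -0.42.

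Some members are of interest for their place or role. Mrpl12 forms the stalk that recruits translation factors and has been reported to bind the mitochondrial RNA polymerase. It had 65.2, 54.1 and 67.8 normalized counts at day 2, 64.7, 47.5 and 55.6 at day 4, and 57.6, 66.01 and 56.3 at day 6, against 72.2, 74.2 and 74.8 in the control. All 9 libraries of the TUNA hairpin lay below the closely spaced controls, but the log2 changes of -0.24, -0.40 and -0.30 did not pass (limma adjusted p = 0.627, 0.131 and 0.381). Of the other relatives of bacterial S18, Mrps18c averaged 61.3 ± 5.55, 41.4 ± 11 and 46.6 ± 13.7 at days 2, 4 and 6 and 52.1 ± 8.42 in the control, and passed in no comparison. Mrps18a, whose protein sits in the large subunit, was not tested at means of 4.23, 3.73 and 4.94, against 7.20 in the control. Mrps30 is also a large subunit protein in structures of the mammalian mitoribosome. It averaged 28.9 ± 7.29, 43.4 ± 4.42 and 38.5 ± 6.76 at days 2, 4 and 6, against 35.1 ± 6.12 in the control, and did not pass. With Mrps18a and Mrps30 counted in the large subunit, its median at day 4 against the control was -0.18 over 43 members, and that of the small subunit was -0.17 over 23.

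Reads of some members may be shared with a neighbour or a copy. In the annotation 35 members overlap a gene on the other strand and 11 overlap one on the same strand, and counting by strand was not given in the sources used here, so reads of both strands may be mixed. Of the 7 members called in any comparison, Mrpl32 and Mrpl35 overlap no annotated gene, Mrpl51 overlaps a microRNA gene, and Mrpl40, Mrpl44, Mrps18b and Mrps26 overlap a gene on the other strand. Mrps11 and Mrpl46 overlap each other on opposite strands. Mrps11 averaged 21.5 ± 7.14, 12.5 ± 3.53 and 14.2 ± 1.74 at days 2, 4 and 6, against 20.6 ± 8.0 in the control. Mrpl46 averaged 24.2 ± 1.42, 19.7 ± 4.07 and 22.1 ± 4.48, against 24.5 ± 5.14 in the control, and neither gene passed in any comparison. Mrpl48-ps, the pseudogene row that was tested, averaged 26.5 ± 6.91, 15.0 ± 4.17 and 19.6 ± 7.39, against 17.2 ± 6.15 in the control. Its values and those of Mrpl48, at 45.8 ± 6.88, 45.9 ± 13 and 41.3 ± 9.68 against 48.0 ± 8.03, are uncertain because the copies can share reads.

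Without the members that overlap another gene, 18 large and 11 small subunit members remained. Their medians against the control were 0.26 for the large and -0.07 for the small subunit at day 2, 0.00 and 0.03 at day 4, and 0.04 and 0.02 at day 6. So the negative medians at days 4 and 6 were not found among members free of overlap. Relative to day 2, the day 4 medians of this smaller group were -0.23 and -0.25, close to those of all members.

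Of the other genes of mitochondrial translation, 1 of 6 ribosomal protein genes with other names, 1 of 16 assembly factors, 0 of 12 translation factors and 1 of 14 aminoacyl-tRNA synthetases passed at day 4 against the control, where 14.7% of all rows did. Among the 6 ribosomal protein genes with other names (Dap3, Ptcd3, Chchd1, Aurkaip1, Gadd45gip1 and Ict1), all tested, Ptcd3, a small subunit protein with pentatricopeptide repeats, rose at day 4. It had 2903, 2688 and 1635 normalized counts at day 4, against 861, 1146 and 1774 in the control, with overlapping libraries and a log2 change of 0.95 ± 0.28 (SE; limma adjusted p = 0.0307). A small RNA gene is annotated within Ptcd3, and its share of these reads was not tested. Gadd45gip1, a large subunit protein, rose at day 6 to 70.4 ± 8.23, against 43.2 ± 6.10 at day 4 (SD, n = 3 each; limma adjusted p = 0.0398). Of 22 assembly factors in the table, 16 were tested. In limma 1 passed at day 4 against the control and 1 for day 4 against day 2, where 7.66% of all rows did. For day 6 against day 4 it was 1, where 5.58% of all rows passed. Limma-voom called 2, 2 and 1 in these comparisons, and its shares over all rows are not given here. Trub2, which makes pseudouridine in mitochondrial RNA, fell at day 4 to 34.1, 35.1 and 27.5 normalized counts, against 57.3, 55.2 and 56.6 in the control (log2 change -0.80 ± 0.18 SE; limma adjusted p = 0.00674). It also fell relative to day 2, when it averaged 53.1 ± 5.86 (adjusted p = 0.0226, limma), and rose at day 6 to 54.4 ± 3.75 relative to day 4 (adjusted p = 0.0209, limma). The 12 tested translation factors gave 0 calls against the control in limma and 0 in limma-voom. At an unadjusted p under 0.05 there were 0 at day 2, 1 at day 4 and 1 at day 6. Over all rows tested 12.3%, 29.9% and 19.5% were under that value at days 2, 4 and 6.

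Of 14 tested mitochondrial aminoacyl-tRNA synthetases, Lars2, which charges the leucine tRNAs, rose at day 4. It had 51.0, 46.7 and 32.3 normalized counts at day 4, against 17.3, 23.9 and 25.4 in the control, with no overlap and a log2 change of 0.93 ± 0.25 (SE; limma adjusted p = 0.018). Lars2 also stood higher at day 4 than at day 2, when it averaged 20.3 ± 3.02 (adjusted p = 0.0159, limma). Among 5 tested genes of mitochondrial DNA transcription and maintenance, Peo1, the helicase Twinkle, fell at day 4. It averaged 25.6 ± 3.23, against 42.6 ± 12 in the control (adjusted p = 0.0492, limma), a call that limma-voom did not make. Peo1 was the only call of its list at day 4 against the control, where 14.7% of all rows passed. Of 6 tested transcription factors linked to these promoters, only Myc passed at day 4 against the control. Myc fell to 5.21, 6.84 and 7.33 normalized counts, against 23.2, 26.01 and 21.0 in the control. Its log2 change was -1.72 ± 0.29 (SE; limma adjusted p = 0.000856), and it rose at day 6 to 23.7 ± 6.70 relative to day 4 (adjusted p = 0.00172, limma). Nrf1 and Yy1 passed in no comparison, with 49.1 ± 8.02 and 93.0 ± 9.46 at day 4, against 66.6 ± 15.1 and 82.8 ± 11.7 in the control. Messages of the mitochondrial genome were not analysed here.

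For comparison, 291 rows carry names given to proteins of the cytosolic ribosome, of which 183 were listed at 0 and 101 were tested. Pseudogene rows among them were not set apart. The values below may thus not be those of ribosomal protein genes alone. Their median log2 change against the control was 0.14 at day 2, 0.20 at day 4 and 0.03 at day 6, beside -0.00, -0.18 and -0.09 for all 66 mitochondrial members. At day 4 the cytosolic rows that passed were 8 higher and 6 lower, 13.9% of the 101 tested, where 14.7% of all rows passed. A log2 change below 0 at day 4 was found for 28.7% of the cytosolic and 63.6% of the mitochondrial rows. Between day 4 and day 6 the medians were -0.17 for the cytosolic and 0.15 for the mitochondrial rows. The difference between these lists was not tested.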

How the data were processed

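RNA-seq of 12 libraries was used. The authors deposited 1 table of log2 normalized counts with values listed from 0 upward; BWA, DESeq and the mouse build mm9 are listed per the submitters' processing notes, with neither version nor role. The counting of reads was not given in the sources used here. Values were taken as powers of 2, and those listed at 0 as 0; with the pseudocount, the change of a low gene is understated. The worth of 1 read was recovered from the steps between low values; 43.3% to 56.7% of values under 20 reads were within 0.02 of a whole read, so the values are not whole counts and no count test was run. Recovered depth is 3522126 to 5652412 reads per library, with 936421 to 2024737 outside 3 dominant rows. It sets the precision, and no counting interval is given for weighted reads.

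The filter asked for 10 normalized counts in 3 libraries and left 8739 rows. On the scale of log2(value + 1), where 1 is the pseudocount, they were fitted by limma 3.58.1 (R 4.3.3) with a coefficient for each of 4 groups, an intensity trend, 8 residual and 9.48 prior degrees of freedom (median). P-values were adjusted by Benjamini-Hochberg over all rows kept in each of 5 comparisons, threshold 0.05. "Rose" and "fell" are used of rows past it. The fit was tested on simulated data. Errors are SD over 3 libraries for levels and SE for log2 changes. Members were named if past the threshold, if among the 3 highest or 3 lowest log2 changes with a mean of 30 or more normalized counts, if among the 3 highest or lowest per kilobase in a subunit, or for a known place or role. The members and lists were chosen with earlier results of these data known, and the split by bacterial counterpart was made after values had been seen.

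All 81 members matched a symbol or synonym in GENCODE M21 or RefSeq on GRCm38, used for names, transcript lengths and overlaps; since mm9 was the authors' build, those overlaps may differ there. Of all symbols 78.5% matched. Alternatives were other scalings (median of ratios, upper quartile), no filter or a filter of 30, a pseudocount of 5, limma-voom on the recovered depth, no trend, only the 2 groups compared, a block on the replicate number, a threshold of 0.01, other subunit assignments, members without overlapping genes, and the omission of single libraries. Plots used matplotlib 3.10.9 (Python 3.11.15).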

Additional observations from a re-analysis of the deposited data

How the results depend on the processing

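No log2 change of a named member that passed the test turned its sign under any alternative run; some medians near 0 did, as given below. The count of members called stayed within 1.5 times its value under both scalings, a pseudocount of 5, limma-voom and a fit of only the 2 groups, with 1 exception: day 6 against day 4 went to 0 in the fit of only the 2 groups. Without a filter the counts were 0 for day 2, 1 for day 4 against day 2 and 0 for day 6 against day 4. With a filter of 30 normalized counts the count for day 6 against day 4 was 1, as Mrps18b was then not tested. Without the intensity trend they were 0 for day 2, 0 for day 4 against day 2 and 0 for day 6 against day 4. At a threshold of 0.01 the counts were 0 at day 2, 3 at day 4, 0 at day 6, 0 for day 4 against day 2 and 0 for day 6 against day 4. The shares over all rows under these alternatives are not given here.

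With 1 library left out, the count was 0 at day 2 in all 6 fits, 3 to 9 at day 4, 0 to 3 at day 6, 0 to 2 for day 4 against day 2 and 0 to 1 for day 6 against day 4. Fits that leave out a library have fewer samples and fewer degrees of freedom, and their shares over all rows are not given here. Large subunit medians then ran from -0.072 to 0.080 at day 2, -0.22 to -0.15 at day 4, -0.17 to -0.045 at day 6, -0.28 to -0.21 for day 4 against day 2, and 0.098 to 0.20 for day 6 against day 4. Small subunit medians ran from -0.053 to 0.046, -0.28 to 0.034, -0.084 to 0.013, -0.34 to 0.069 and -0.072 to 0.24 in the same order.

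Medians that moved by more than the replicate SD under other settings were these. With a filter of 30 the large subunit median was -0.37 at day 4 and -0.23 at day 6, and the small subunit median for day 4 against day 2 was 0.020; that last median was -0.087 without a filter. Without members that overlap another gene, the large subunit medians were 0.26 at day 2, 0.0024 at day 4 and 0.044 at day 6, and the small subunit median was 0.032 at day 4. Beyond the number of members left, the cause was not tested.

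Libraries with the same replicate number did not as a rule deviate together. Over 18 such pairs the correlation of their deviations from the group means ran from -0.277 to 0.328, with 3 pairs over 0.1. Over pairs with other numbers it ran from -0.331 to 0.315. Some libraries did go together across groups: the value of 0.328 was that of replicate 3 of days 4 and 6. Day 4 replicate 3 also had 0.284 with control replicate 1 and -0.310 with day 6 replicate 2. With the replicate block the count of members called was 1 for day 4 against day 2 and 1 for day 6 against day 4, and stayed within 1.5 times its value in the other comparisons. Under the block Mrpl35 (adjusted p = 0.0502, limma) and Mrpl44 (0.0678) no longer passed for day 4 against day 2, where Mrpl51 did, Mrps26 (0.0633) no longer passed for day 6 against day 4, where Mrps18b did, and Mrpl53 passed at day 4 (0.046). Named members gave 472 results on the same side of the threshold, 59 that lost the call and 7 that gained one. With few reads behind most members, small changes were not detectable at this depth.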

Other observations

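Split by ancestry, a grouping made after values had been seen, the 41 tested members with a bacterial counterpart had median log2 changes of 0.05 at day 2, -0.13 at day 4 and -0.01 at day 6 against the control. The 24 tested members without one had -0.04, -0.28 and -0.14. Of the first group 24 (58.5%) were below 0 at day 4 and 3 (7.32%) passed as lower (Mrpl32, Mrpl35 and Mrps18b). Of the second 17 (70.8%) were below 0 and 2 (8.33%) passed as lower (Mrpl40 and Mrps26). Over all rows tested 50.6% were below 0 at day 4 and 7.76% passed as lower. The difference between the groups was not tested.

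Members were also split by promoter motif. The 22 tested members with a GABPA/ETS match in their windows had a median log2 change of -0.29 at day 4 against the control. Of these 2 were called. The 35 without a match had -0.01 and 3 called. Over all rows tested 14.7% were called in that comparison, 7.76% as lower. For the 11 members with a YY1 match the median was -0.29 and for the 46 without it -0.18. The 8 members with the short NRF1 motif had -0.33 and the 49 without it -0.18. For the 3 with the full NRF1 motif the median was -0.28 and for the 54 without it -0.19. The 4 members with the MYC E-box had -0.016 and the 53 without it -0.21. These medians are descriptions of overlapping groups of few genes, and no test was made.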
